A study of Mus musculus with 4 samples.

Results

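The 52 genes described here encode the proteins that copy the genome: the origin recognition complex and licensing factors, the MCM helicase and its activators, the S-phase kinases, the polymerases, the sliding clamp and its loaders, and the factors that join fragments, coat single strands, supply nucleotides and reassemble chromatin. They were chosen by name, for the known role of each protein, by a rule that uses no measured value, although earlier results of these data were known when the list was drawn up. All 52 were among the 20385 genes listed in both deposited tables, and 51 of them were among the 16371 genes with enough counts to be tested. RNA was sequenced in bulk from cerebral cortex at embryonic day 16 of C57BL/6 mice. The Cd93 knockout group held the libraries KO 5 and KO 6, and the wild-type group held WT 1 and WT 4. The groups share strain, stage and tissue and differ by the Cd93 genotype. The labels give neither the deleted part of Cd93 nor the cells it was deleted in. Whether a library stands for 1 animal is not stated either, so p-values measure only how far these libraries spread.

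In a dividing cell the origin recognition complex marks origins, and CDC6 and CDT1 load the MCM2 to MCM7 ring there in G1, a step that geminin blocks once DNA synthesis has begun. In S phase the kinases CDK2 with cyclin E and CDC7 with DBF4 start the helicase by bringing CDC45 and the GINS complex to the ring. Polymerase alpha with primase then begins each strand, and the clamp PCNA holds polymerases delta and epsilon on DNA. In the fetal cortex some of these genes are known as markers of cycling radial glia and intermediate progenitors, and many of the genes listed are textbook targets of E2F transcription factors.

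The promoters of 4 of the genes are shown because each holds an E2F motif and each gene is followed library by library further on. They come from RefSeq on the build GRCm38.p6, are written in the direction of transcription, and carry the motif matches in capitals. Positions are counted from the RefSeq start of the gene, -1 being the base before it. The stretch of Cdc6 is chr11:98907953-98908080 on the plus strand, with its match at -138 to -131. That of Pola1 is chrX:93632226-93632353 on the minus strand, with its match at -138 to -131. That of Mcm6 is chr1:128359706-128359875 on the minus strand. It holds 3 matches, of which the first 2, at -110 to -103 and -106 to -99, overlap and read as a single run of capitals, and the last lies at -47 to -40. That of Rfc3 is chr5:151651209-151651278 on the minus strand, with a match at -10 to -3. Another Rfc3 match, at 0 to 7, lies past the end of the printed stretch. The Cdc6 stretch, and part of the Rfc3 stretch, lie inside the gene's span as deposited, since the deposited start is farther upstream than the RefSeq start.
Cdc6: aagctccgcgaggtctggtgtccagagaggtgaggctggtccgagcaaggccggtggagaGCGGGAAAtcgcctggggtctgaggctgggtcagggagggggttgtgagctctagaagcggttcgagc
Pola1: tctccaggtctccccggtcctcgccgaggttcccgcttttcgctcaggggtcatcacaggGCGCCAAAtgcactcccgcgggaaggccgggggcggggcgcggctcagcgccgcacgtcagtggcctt
Mcm6: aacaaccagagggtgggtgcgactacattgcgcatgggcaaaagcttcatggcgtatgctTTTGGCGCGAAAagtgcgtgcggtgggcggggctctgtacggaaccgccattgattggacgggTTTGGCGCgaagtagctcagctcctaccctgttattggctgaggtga
Rfc3: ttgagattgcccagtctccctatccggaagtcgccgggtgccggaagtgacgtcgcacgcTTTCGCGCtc

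E2F motifs were more frequent in the promoters of these genes than over the genome. The letters searched were TTTCCCGC, TTTGGCGC, TTTCGCGC and TTTGCCGC on either strand, in a window of 300 bases that runs from 250 before the start to 50 after it. Of the 52 genes, 43 were in the RefSeq promoter table, and 16 of these, or 37.2%, held at least 1 match. They were Orc1, Orc3, Cdc6, Cdt1, Mcm3, Mcm5, Mcm6, Mcm7, Mcm8, Gins3, Pola1, Pold1, Pold3, Pole2, Rfc3 and Lig1. The share was 2.60% of the 27025 genes in the table and 4.47% of the 11331 of them that were tested. In the 250 bases before the start alone, it was 20.9% of the replication genes and 2.16% of all genes. The letters CCAAT, an element known from genes of G2 and mitosis, were in 58.1% of the replication promoters and 41.1% of all genes, and TTTGAA, the core of the cell cycle homology element, was in 16.3% and 20.2%. Of the tested genes with a promoter, 42.7% held CCAAT and 14.2% held TTTGAA. A match describes letters and is not a bound site.

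All 51 tested genes were transcribed in every library, and their levels spread over a wide range. Levels are CPM, the counts of a gene relative to its library's total, scaled between libraries by TMM, and are compared between genes only per kilobase of the principal transcript. Averaged over the 4 libraries, Pcna, the sliding clamp, stood highest at 125 CPM per kilobase. It was followed by the helicase subunit Mcm7 at 70.4, by the origin recognition subunits Orc6 at 46.2 and Orc3 at 40.7, by the clamp loader subunit Rfc3 at 40.1 and by Rrm2, a ribonucleotide reductase subunit, at 38.4 CPM per kilobase. The libraries of Orc6, Orc3, Rfc3 and Rrm2 overlapped each other in level, so their order is not resolved. The order below Pcna and Mcm7 also depended on the length used: per kilobase of all exons joined, Rrm2 came next at 30.4, Orc6 was at 24.1, Orc3 at 15.4 and Rfc3 at 14.6 CPM per kilobase. The lowest of the tested genes were Mcm10, a helicase activator, at 2.55, the GINS subunit Gins3 at 2.51 and Orc1, the origin subunit regulated through the cell cycle, at 1.21 CPM per kilobase. With the joined exons Orc1 and Mcm10 were again lowest, at 1.05 and 1.61, and Pole2 and Cdc6, at 1.80 and 1.81, lay below Gins3 at 2.33 CPM per kilobase. Pcna was 104-fold above Orc1 on this scale, and 75.6-fold with the union of all exons as the length.

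**Figure D1:**
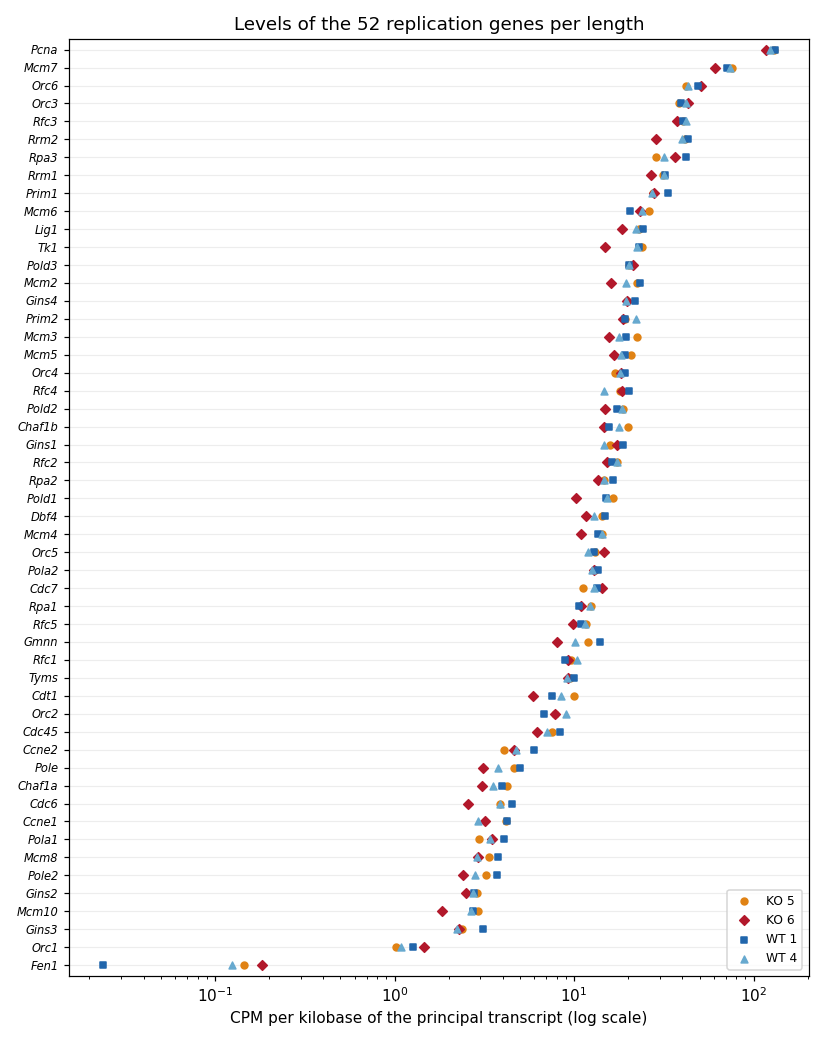
Levels of the 52 replication genes in CPM per kilobase of the principal transcript, on a log axis, with a point for each of the libraries KO 5, KO 6, WT 1 and WT 4 and genes ordered by their mean. Pcna and Mcm7 lie above the others at means of 125 and 70.4 CPM per kilobase, and Fen1, which was not tested, lies far below them.

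Fen1, the flap endonuclease of Okazaki fragment maturation, was the gene that could not be tested. It had 6 counts in KO 5 and 7 in KO 6, against 1 in WT 1 and 5 in WT 4. Its level can hardly be read from these counts, because 84.2% of its exon bases lie under Tmem258 and the antisense gene Gm10143 on the opposite strand. In the same libraries Tmem258 had 599 and 711 counts in KO 5 and KO 6, and 689 and 584 in WT 1 and WT 4. Whether the counting used strand is not given in the sources used here, so reads of such overlapping genes cannot be assigned. In all, 19 of the 52 genes shared at least 1 exon base with another gene, and 10 shared over 10%. The largest shares after Fen1 were 67.3% for Gins2, 52.5% for Chaf1a and 29.8% for Orc2, so their values are less certain.

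The libraries were of similar depth, from 16318317 counts in KO 6 to 17586157 in WT 1, and a single count was worth 0.0569 to 0.0613 CPM. Cd93 itself had 111 and 99 counts in KO 5 and KO 6, against 680 and 409 in WT 1 and WT 4, in the order of the labels. At a log2 fold change of -2.32 (SE 0.25) it did not pass edgeR's quasi-likelihood test (Benjamini-Hochberg adjusted p of 0.211). All 11 neuron markers and all 6 markers of intermediate progenitors, among them Eomes and Neurog2 of the dorsal cortex, were counted in every library. WT 1 was high in the lists of ganglionic eminence and meningeal genes. The 15 ganglionic eminence genes summed to 365 and 530 CPM in KO 5 and KO 6, and to 988 and 522 CPM in WT 1 and WT 4. The 8 meningeal genes summed to 29.5 and 42.8 CPM in the KO libraries, and to 451 and 68.3 CPM in WT 1 and WT 4. Both lists were also lower in KO 5 than in WT 4, at median log2 ratios of -0.71 and -1.28. By edgeR 0 genes of either list were called, against 0.0122% of all tested genes. An unadjusted p under 0.05 by edgeR was found for 8 of 15 and 6 of 7 tested, against 1.94% of all tested genes. Lists of 8 endothelial and 8 microglial and macrophage genes had median log2 fold changes of -0.42 and -0.47, and WT 1 was again high. The endothelial genes summed to 128 and 125 CPM in KO 5 and KO 6, and to 215 and 124 CPM in WT 1 and WT 4. No gene of these 4 lists was at 0 in any library. The part of these tissues in the values of replication genes in WT 1 was not tested.

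No replication gene changed between Cd93 KO and WT cortex by the test. The quasi-likelihood test of edgeR, after Benjamini-Hochberg adjustment over all genes, called 0 of the 51, where 0.0122% of all tested genes were called. None of the 51 had an unadjusted p under 0.05, against 1.94% of all tested genes. The smallest unadjusted p among them was 0.160, for Ccne2, and the smallest adjusted p was 0.9999. DESeq2 and limma-voom also called 0 of the 51, with smallest unadjusted p-values of 0.226 and 0.154. For a single gene, an exact permutation test of 2 libraries against 2 cannot give a p below 0.333.

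The fitted differences were small. The log2 fold changes of KO over WT ran from -0.38 for Cdc6 to 0.15 for Orc5, with standard errors of 0.0990 to 0.309, set by 2 libraries per genotype. The 95% interval lay within 1 log2 unit of 0 for 50 of the 51 genes, the exception being Cdc6 with a lower bound of -1.003, and within 1.5-fold in either direction for 34. The fitted sign was negative for 41 genes and positive for 10, against 51.0% negative over all tested genes, and the median was -0.08, against -0.003 over all tested genes. That median rested on single libraries. Without KO 6 it was 0.0005, with 26 genes positive and 25 negative, and without WT 1 it was -0.03. It was -0.17 without KO 5 and -0.11 without WT 4. In bulk RNA, fewer cycling cells and less RNA of these genes per cell cannot be told apart.

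**Figure D2:**
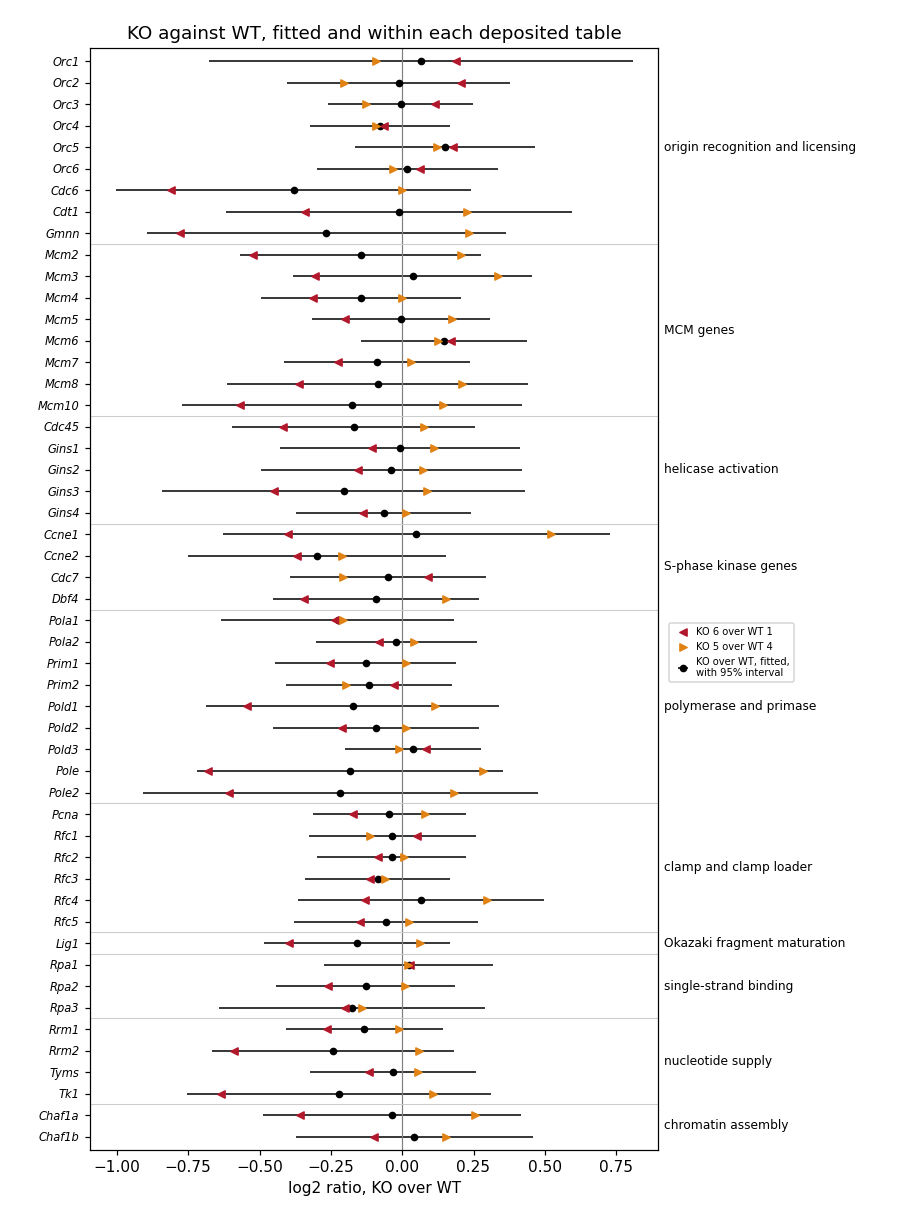
Log2 ratio of KO over WT for the 51 tested replication genes, grouped by role. Black points are the values fitted over all 4 libraries with their 95% intervals, and triangles are the ratios of KO 6 over WT 1 and of KO 5 over WT 4. Every black interval crosses 0, and most ratios of KO 6 over WT 1 lie left of 0 while most of KO 5 over WT 4 lie right of it.

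The libraries of the genotypes overlapped for nearly all of the genes. They were apart for 3 of the 51, against 23.4% of all tested genes. Orc5 was higher in both KO libraries, while Ccne2 and Rrm1 were lower in both. KO 6 was the lowest of the 4 libraries for 28 of the 51, against 25.6% of all tested genes. WT 1 was the highest for 25 of the 51, against 27.9% of all tested genes. KO 5 was the highest for 15 of the 51, against 4129 of all 16371 tested genes. Between the WT libraries, 35 of the 51 were higher in WT 1 than in WT 4, against 8283 of all 16371 tested genes. The median log2 ratio of WT 1 to WT 4 over the 51 was 0.11. Within the KO group, 36 of the 51 were lower in KO 6 than in KO 5, against 49.3% of all tested genes, and the median log2 ratio of KO 6 to KO 5 was -0.19. The authors' tables pair KO 6 with WT 1 and KO 5 with WT 4, and 33 of the 51 were lower in KO 6 than in WT 1 and higher in KO 5 than in WT 4, against 27.3% of all tested genes. The median log2 ratio was -0.21 within the table of KO 6 and WT 1 and 0.05 within the table of KO 5 and WT 4. Each such ratio sets 1 library against another and has no replicate check.

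**Figure D3:**
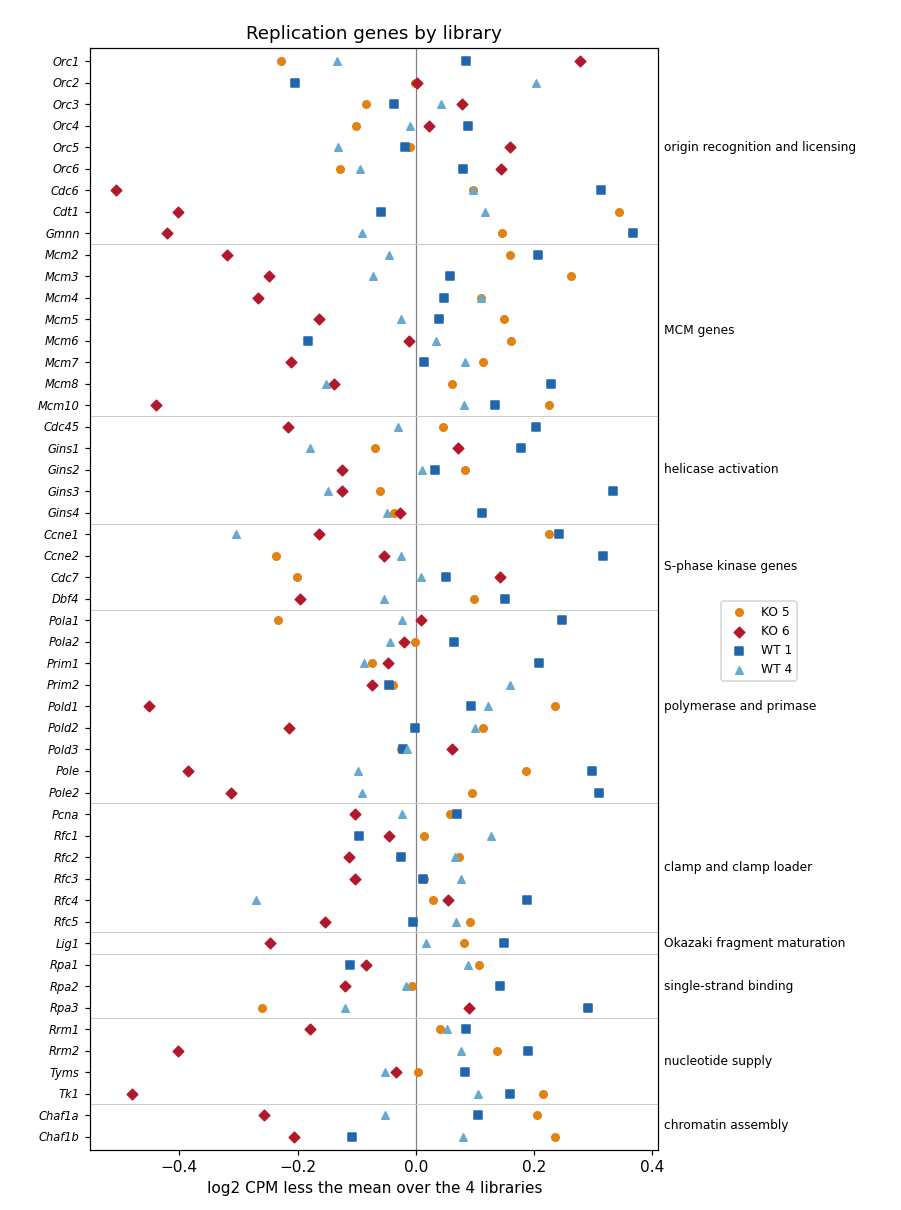
Log2 CPM of each of the 51 tested replication genes less its mean over the 4 libraries, by role, with a point for each library. KO 6 is the leftmost point for 28 genes, among them Cdc6, Cdt1, Gmnn, Pold1, Rrm2 and Tk1, whereas for Orc1, Orc3, Orc5 and Orc6 it is the rightmost.

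The origin recognition genes did not follow the low values of KO 6. They were not alone in this: 15 of the 51 genes were higher in KO 6 than in KO 5, Cdc7 and Rpa3 among them. The role group of origin recognition and licensing held 9 genes, with a median log2 ratio of KO 6 to KO 5 of 0.12. Its split into Orc genes and licensing factors is not one of the 10 role groups. Orc6 (chromosome 8, 85299632 to 85308278), the subunit with the highest level, had 54.3 CPM in KO 5 and 65.5 in KO 6, against 62.7 in WT 1 and 55.6 in WT 4. The groups overlapped with KO 6 highest, and the log2 fold change was 0.02 (SE 0.13), which was -0.12 without KO 6 and -0.06 without WT 4. Orc5 (chromosome 5, 22486485 to 22550429) had 27.3 and 30.8 CPM in KO 5 and KO 6, against 27.2 and 25.1 in WT 1 and WT 4, a log2 fold change of 0.15 (SE 0.13). Its groups were apart by a narrow margin between KO 5 and WT 1. Orc1, which has the fewest counts of the tested genes, had 54 and 71 counts in KO 5 and KO 6, against 68 and 56 in WT 1 and WT 4, so its KO libraries enclosed both WT libraries. Over the 6 Orc genes the log2 ratios of KO 6 to KO 5 ran from 0.003 for Orc2, where the libraries were level, to 0.49 for Orc1, with a median of 0.16.

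The licensing factors and their inhibitor were lowest in KO 6. Cdc6 (chromosome 11, 98907801 to 98923940), the ATPase that loads MCM rings and whose promoter is printed above, had 9.93 CPM in KO 5 and 6.53 in KO 6, against 11.5 in WT 1 and 9.93 in WT 4. KO 6 lay below the 3 other libraries and KO 5 was level with WT 4, and the log2 fold change was -0.38 (SE 0.26), the lowest of the 51. It was -0.71 without KO 5 and -0.11 without KO 6. The ratio was -0.81 for KO 6 over WT 1 and 0.0007 for KO 5 over WT 4. Cdt1, the partner of CDC6 in loading, had 21.8 and 13.01 CPM in KO 5 and KO 6, against 16.5 and 18.6 CPM in WT 1 and WT 4. Its KO libraries enclosed both WT libraries. Gmnn, which encodes geminin, the inhibitor of CDT1, had 13.4 and 9.06 CPM in KO 5 and KO 6, against 15.6 and 11.4 CPM in WT 1 and WT 4. The median log2 ratio of KO 6 to KO 5 over the 3 genes was -0.60, with a range of -0.74 to -0.56.

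All 8 MCM genes were lower in KO 6 than in KO 5. Mcm7 (chromosome 5, 138164583 to 138172422), a helicase subunit whose gene also holds the microRNA genes Mir25 and Mir93, had 225 CPM in KO 5 and 179 in KO 6, against 210 in WT 1 and 220 in WT 4. KO 6 was lowest and KO 5 highest, so the KO libraries enclosed both WT libraries, and the log2 fold change was -0.09 (SE 0.14) and 0.07 without KO 6. Mcm3 and Mcm6 were the 2 MCM genes with a positive fitted sign, and Mcm3 had a log2 fold change of 0.04 (SE 0.18). Mcm6 (chromosome 1, 128331590 to 128359664), with 3 E2F matches in its promoter, was the only MCM gene higher in KO 6 than in WT 1. It had 76.1 and 67.5 CPM in KO 5 and KO 6, against 59.98 and 69.7 CPM in WT 1 and WT 4, a log2 fold change of 0.15 (SE 0.12) with overlapping groups. It was 0.04 without WT 1, 0.06 without KO 5, 0.27 without WT 4 and 0.23 without KO 6. Mcm2, a subunit that also binds histones, had 75.8 and 54.4 CPM in KO 5 and KO 6, against 78.3 and 65.7 CPM in WT 1 and WT 4, so KO 5 lay between the WT libraries and KO 6 below them. Mcm10 (chromosome 2, 4989714 to 5012791), which acts when the helicase is activated, had 14.3 and 8.999 CPM in KO 5 and KO 6, against 13.4 and 12.9 CPM in WT 1 and WT 4. The WT libraries lay close together inside the KO range, and its log2 fold change was -0.18 (SE 0.25) and 0.12 without KO 6. Over Mcm2 to Mcm7 the median log2 ratio of KO 6 to KO 5 was -0.35. Mcm8, a relative that acts in recombination, had overlapping groups too, with log2 ratios of -0.36 for KO 6 over WT 1 and 0.21 for KO 5 over WT 4.

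Among genes of helicase activation, 5 of 5 had a negative fitted sign, from -0.21 to -0.01. Cdc45 (chromosome 16, 18780447 to 18811987), which completes the active helicase, had 16.04 CPM in KO 5 and 13.4 in KO 6, against 17.9 in WT 1 and 15.2 in WT 4, a log2 fold change of -0.17 (SE 0.18). KO 5 lay between the WT libraries and KO 6 below them, and the log2 fold change was -0.04 without KO 6, -0.05 without WT 1, -0.31 without KO 5 and -0.28 without WT 4. Gins4 (chromosome 8, 23226616 to 23237659), the GINS subunit of highest level, had 26.4 and 26.6 CPM in KO 5 and KO 6, against 29.3 and 26.2 CPM in WT 1 and WT 4. KO 5, KO 6 and WT 4 were within 1 CPM of each other and WT 1 was above them, and the log2 fold change of -0.07 (SE 0.13) was 0.02 without WT 1. Gins3 (chromosome 8, 95633453 to 95645060) had 5.99 and 5.73 CPM in KO 5 and KO 6, against 7.88 and 5.64 CPM in WT 1 and WT 4. Again WT 1 alone was high, and its log2 fold change of -0.21 (SE 0.26) was 0.06 without WT 1. Gins1 and Gins2 had fitted log2 fold changes of -0.01 and -0.04.

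Among the S-phase kinase genes, Ccne2 was the gene of smallest p. Ccne2 (chromosome 4, 11191351 to 11204779), a cyclin E gene, had 12.3 CPM in KO 5 and 13.9 in KO 6, against 18.01 in WT 1 and 14.2 in WT 4. Both KO libraries were below both WT libraries, with KO 6 just under WT 4, and the log2 fold change was -0.30 (SE 0.19), or -0.12 without WT 1 and -0.45 without WT 4. It shares 17.4% of its exon bases with Ints8 on the opposite strand. Ccne1, the other cyclin E gene, had 8.39 and 6.41 CPM in KO 5 and KO 6, against 8.50 and 5.82 CPM in WT 1 and WT 4, with a log2 fold change of 0.05 (SE 0.28). KO 5 and WT 1 were level and lay above KO 6 and WT 4. Dbf4 (chromosome 5, 8396973 to 8422716), the activating subunit of the CDC7 kinase, had 34.5 and 28.1 CPM in KO 5 and KO 6, against 35.7 and 31.0 CPM in WT 1 and WT 4. The log2 fold change of -0.09 (SE 0.15) was 0.01 without WT 1 and 0.05 without KO 6. Cdc7 itself was highest in KO 6, at 44.5 CPM, and lowest in KO 5, at 35.1 CPM, with WT 1 and WT 4 at 41.7 and 40.5 CPM between them.

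Of the 9 polymerase and primase genes, 6 were lower in KO 6 than in KO 5. Pola1 (chromosome X, 93304767 to 93632155), the catalytic subunit of polymerase alpha, had 15.7 CPM in KO 5 and 18.6 in KO 6, against 21.9 in WT 1 and 18.2 in WT 4. KO 6 and WT 4 overlapped, and the log2 fold change was -0.23 (SE 0.17). It was -0.08 without WT 1, -0.11 without KO 5, and -0.35 without WT 4 or without KO 6. Prim1 (chromosome 10, 128015168 to 128030037), the catalytic primase subunit, had 43.5 and 44.3 CPM in KO 5 and KO 6, against 52.9 and 43.1 CPM in WT 1 and WT 4. WT 1 alone was high, and its log2 fold change of -0.13 (SE 0.13) was 0.03 without WT 1. Pola2 and Prim2, the other primase complex genes, also had KO 5 and KO 6 close together, with log2 ratios of KO 6 to KO 5 of -0.02 and -0.04. Except for Pold3, the genes of polymerases delta and epsilon among these 9 were lower in KO 6 by a wider margin. Outside the 52 genes, the subunit genes Pole3, Pole4 and Pold4 had log2 ratios of KO 6 to KO 5 of -0.10, 0.09 and 0.47. The catalytic subunit gene Pold1, of polymerase delta, had 57.1 and 35.5 CPM in KO 5 and KO 6, against 51.8 and 52.8 CPM in WT 1 and WT 4. Pole, of polymerase epsilon, had 33.1 and 22.3 CPM in KO 5 and KO 6, against 35.7 and 27.1 CPM in WT 1 and WT 4. In both genes KO 6 was the lowest library while KO 5 was within or above the WT values. The accessory subunit genes Pold2 and Pole2 were also lowest in KO 6. Pold2 had 30.7 and 24.5 CPM in KO 5 and KO 6, against 28.4 and 30.4 CPM in WT 1 and WT 4, and Pole2 had 5.48 and 4.13 CPM in the KO libraries, against 6.36 and 4.82 CPM in WT 1 and WT 4. Pold3, another accessory subunit of polymerase delta, stayed between 61.9 and 65.7 CPM in all 4 libraries.

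The clamp and its loaders had fitted log2 fold changes between -0.09 and 0.06. Pcna (chromosome 2, 132249162 to 132253314) had 198 CPM in KO 5 and 177 in KO 6, against 199 in WT 1 and 187 in WT 4. The groups overlapped, and the log2 fold change of -0.04 (SE 0.11) was 0.004 without WT 1 and 0.04 without KO 6. Rfc3 (chromosome 5, 151642756 to 151651242) had 53.3 and 49.1 CPM in KO 5 and KO 6, against 53.2 and 55.6 CPM in WT 1 and WT 4, a log2 fold change of -0.09 (SE 0.11). KO 5 and WT 1 were level, KO 6 was the lowest, and the value was -0.15 without KO 5, -0.05 without WT 4 and -0.03 without KO 6. The other loader genes, Rfc1, Rfc2, Rfc4 and Rfc5, had log2 fold changes of -0.06 to 0.06, and Rfc4 shares 12.7% of its exon bases with Eif4a2. Rfc4 spread most among them, with 22.3 and 22.7 CPM in KO 5 and KO 6, against 24.9 and 18.1 CPM in WT 1 and WT 4.

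Of the genes that finish lagging strand fragments, Lig1 (chromosome 7, 13277283 to 13311433), the ligase that seals them, had 73.4 CPM in KO 5 and 58.4 in KO 6, against 76.9 in WT 1 and 70.2 in WT 4. KO 6 was the lowest and KO 5 lay between the WT libraries, with a log2 fold change of -0.16 (SE 0.14), or 0.00049 without KO 6. For RPA, the complex that coats single strands, the subunit Rpa2 (chromosome 4, 132768332 to 132778752) had 26.8 and 24.8 CPM in KO 5 and KO 6, against 29.7 and 26.6 CPM in WT 1 and WT 4, a log2 fold change of -0.13 (SE 0.13), with KO 5 and WT 4 level. It was -0.04 without WT 1, -0.07 without KO 6 and -0.20 without WT 4. Rpa3 (chromosome 6, 8255936 to 8259173) had 19.2 and 24.5 CPM in KO 5 and KO 6, against 28.2 and 21.2 CPM in WT 1 and WT 4. Here KO 5 was the lowest library, and the log2 fold change of -0.18 (SE 0.19) was 0.05 without WT 1. Rpa1, the large subunit, had a log2 fold change of 0.02 (SE 0.12).

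The genes of nucleotide supply were all lower in KO 6 than in KO 5. Rrm2 (chromosome 12, 24708241 to 24714146), the small subunit of ribonucleotide reductase that is made in S phase, had 91.5 CPM in KO 5 and 62.9 in KO 6, against 94.9 in WT 1 and 87.8 in WT 4. KO 6 was apart from the 3 other libraries, and the log2 fold change of -0.24 (SE 0.18) was 0.007 without KO 6. Rrm1, the large subunit, had 125 and 107 CPM in KO 5 and KO 6, against 129 and 126 CPM in WT 1 and WT 4. Its KO libraries were both the lower ones, with KO 5 just under WT 4, and the log2 fold change was -0.13 (SE 0.11). Tk1, the thymidine kinase of the cytosol, had 34.6 and 21.4 CPM in KO 5 and KO 6, against 33.3 and 32.1 CPM in WT 1 and WT 4. KO 6 alone was low. Tyms, thymidylate synthase, was between 28.9 and 31.7 CPM in all 4 libraries. The median log2 ratio of KO 6 to KO 5 over the 4 genes was -0.38.

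The chromatin assembly genes, which encode subunits of CAF-1, were highest in KO 5 and lowest in KO 6. Chaf1b (chromosome 16, 93883901 to 93906115) had 38.2 CPM in KO 5 and 28.2 in KO 6, against 30.2 in WT 1 and 34.4 in WT 4. Its KO libraries enclosed both WT libraries, and the log2 fold change of 0.04 (SE 0.17) was -0.05 without WT 1 and -0.19 without KO 5. Chaf1a had 23.5 and 17.1 CPM in KO 5 and KO 6, against 21.9 and 19.7 CPM in WT 1 and WT 4. Its log2 fold change was -0.04 (SE 0.19).

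With KO 5 left out, so that KO 6 alone stood for the genotype and was assumed to vary like WT, 6 of the 51 genes had an unadjusted p under 0.05 and were lower, against 1.39% of all tested genes. This is the only fit that leaves KO 6 as the sole KO library, and the other fits without a library are not given by unadjusted p. The median log2 fold change of the 51 was -0.17 in it. That median was -0.03 without WT 1, -0.11 without WT 4 and 0.0005 without KO 6. The 6 genes were Pold1 at a log2 fold change of -0.56, Rrm2 at -0.54 and Tk1 at -0.61, with Mcm2 at -0.40, Mcm4 at -0.34 and Pole at -0.50. KO 6 was the lowest of the 4 libraries for each of these 6 genes. None passed the edgeR test after Benjamini-Hochberg adjustment, where their adjusted p was 0.99998. In the authors' deposited table of KO 6 against WT 1, 26 of the 52 genes had an adjusted p under 0.05 as lower in KO, against 13.3% of all genes, and 0 as higher, against 7.94% of all genes. In the authors' deposited table of KO 5 against WT 4, 6 of the 52 had one as higher in KO, against 6.34% of all genes, and 0 as lower, against 6.51% of all genes. The 6 were Ccne1, Mcm2, Mcm3, Mcm5, Pole and Rfc4, and Mcm2, Mcm3, Mcm5 and Pole were among the 26 lower ones of the authors' other deposited table. The authors marked a gene as significant only at a change of 2-fold or more. That mark was on 0 of the 52 in the authors' deposited table of KO 6 and WT 1, where 4.67% of all genes carried it, and on 0 of the 52 in the authors' deposited table of KO 5 and WT 4, where 2.31% did. Such p-values rest on a single library per genotype. The shares of all genes in the authors' deposited tables include genes with too few counts to be tested here, whereas 51 of the 52 replication genes were tested.

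Genes that act beside this machinery were not called either, but edgeR called only 0.0122% of all tested genes. The share of all tested genes at an unadjusted p under 0.05 by edgeR was 1.94%. Of 44 other replication genes, among them topoisomerases, fork protection factors and histone chaperones, edgeR, DESeq2 and limma-voom called 0, with 1, 1 and 0 at an unadjusted p under 0.05. In the edgeR fit, 34 had a negative and 10 a positive fitted sign, with a median log2 fold change of -0.06. Pclaf, which encodes a PCNA-binding protein, had the smallest p of them, with 49.9 and 45.7 CPM in KO 5 and KO 6, against 70.5 and 53.5 CPM in WT 1 and WT 4. Both KO libraries were lower, and the log2 fold change was -0.37 (SE 0.15). Rnaseh2b, a subunit of the RNase that removes ribonucleotides from DNA, followed with a log2 fold change of -0.36 (SE 0.16), and Rif1, a regulator of origin timing, with -0.21 (SE 0.11). Of 27 regulators of G1 and S phase, edgeR, DESeq2 and limma-voom called 0, none had an unadjusted p under 0.05 by any of them, 7 were positive and 20 negative, and the median was -0.05. Cdkn1c, a CDK inhibitor, Ccnd2, the cyclin D2 gene, and Ccna2, the cyclin A2 gene, had the smallest p, at log2 fold changes of -0.28, -0.32 and -0.26.

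Genes of mitosis were lower in KO 6 than in KO 5 for 21 of 21, with a median log2 ratio of -0.33, beside -0.19 for the replication genes. By edgeR, DESeq2 and limma-voom 0 of the 21 were called, with 1 at an unadjusted p under 0.05 by each. By edgeR these shares over all tested genes were 0.0122% and 1.94%. Of the 21, 20 had a negative fitted sign, with a median log2 fold change of -0.15. Kif11, a spindle motor, had the smallest p, with 59.8 and 47.5 CPM in KO 5 and KO 6, against 81.0 and 65.3 CPM in WT 1 and WT 4. Most progenitor markers were also lower in KO 6 than in KO 5. The median log2 ratio was -0.29 over 12 radial glia genes, of which 10 were lower and 2 higher, and -0.60 over 6 genes of intermediate progenitors, of which 6 were lower. The intermediate progenitor genes summed to 599 and 386 CPM in KO 5 and KO 6, and to 413 and 503 CPM in WT 1 and WT 4, so KO 5 was the highest library and KO 6 the lowest. The median ratio was 0.05 over 11 neuron genes, whose summed level was 10969 and 11476 CPM in KO 5 and KO 6 and 10106 and 11291 CPM in WT 1 and WT 4. For the ganglionic eminence genes the ratio was 0.62, and for meningeal genes 0.84. KO 6 also had the highest mitochondrial share of counts, 4.16%, against 3.02% in KO 5 and 3.70% and 3.27% in WT 1 and WT 4, and the highest summed red cell level, 1469 CPM, against 767 in KO 5 and 1066 and 1010 CPM in WT 1 and WT 4. The part of cell makeup and RNA quality in the low replication values of KO 6 was not tested.

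**Figure D4:**
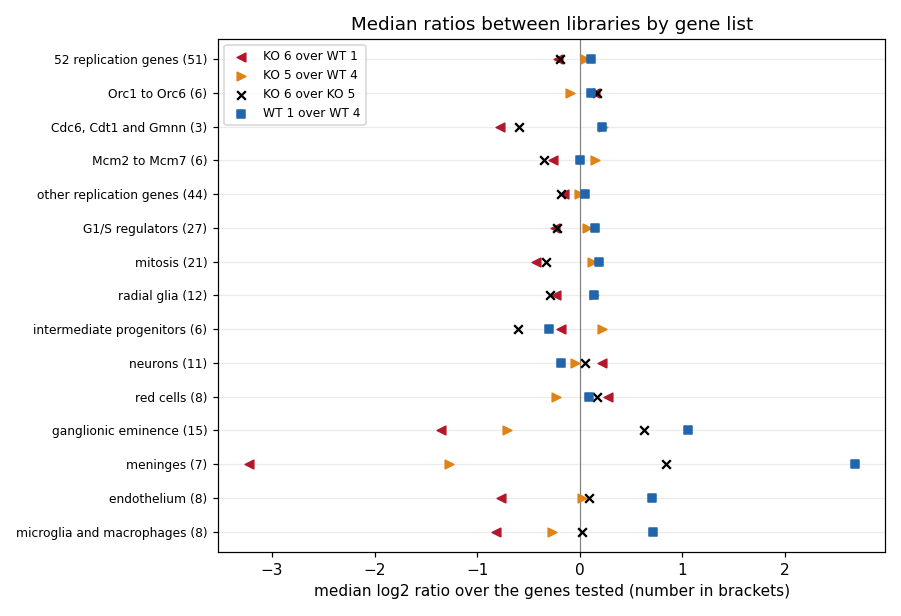
Median log2 ratio between pairs of libraries for the replication genes and for other gene lists, with the number of genes tested in brackets. For the replication genes KO 6 lies below both KO 5 and WT 1, at medians of -0.19 and -0.21. For the mitosis genes these medians are -0.33 and -0.43. Most meningeal and ganglionic eminence genes are highest in WT 1, and their medians of KO 5 over WT 4 also lie below 0, at -1.28 and -0.71.

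The ratio of KO 6 to KO 5 moved with base composition. Across 11744 tested genes with a mean of at least 5 CPM, Spearman's rho between transcript GC content and the log2 ratio of KO 6 to KO 5 was -0.41, and across the 51 replication genes it was -0.61. For KO 6 over WT 1 it was -0.17 and -0.30, for KO 5 over WT 4 0.42 and 0.47, and for WT 1 over WT 4 -0.01 and -0.17. Genes are not independent replicates, and all of them come from the same libraries. The Orc genes had a median GC of 42.8%, and Mcm2 to Mcm7 one of 51.8%. The 17 replication genes of lowest GC had a median log2 ratio of KO 6 to KO 5 of 0.03, the 17 in the middle one of -0.12 and the 17 of highest GC one of -0.33. After subtraction of the median of all tested genes of like GC, these medians were -0.10, -0.16 and -0.31, and that of all 51 was -0.20. With that subtraction the median was 0.01 for the Orc genes, of which Orc2 and Orc4 turned to -0.10 each, -0.34 for Mcm2 to Mcm7, -0.60 for Cdc6, Cdt1 and Gmnn, and -0.45 for the mitosis genes. The 16 genes with an E2F match had a median log2 ratio of KO 6 to KO 5 of -0.25, and the 26 tested genes with a promoter and no match one of -0.18. Their ranges, -0.74 to 0.49 and -0.69 to 0.35, overlapped almost fully.

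**Figure D5:**
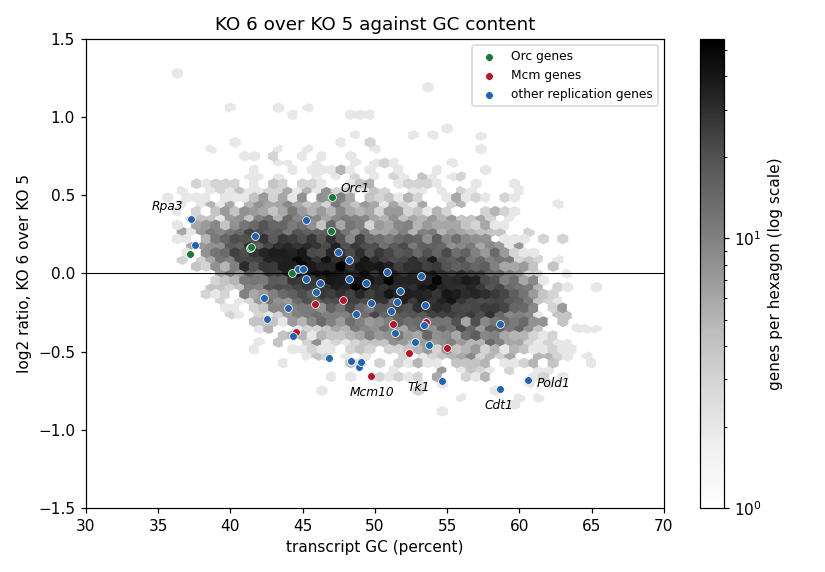
Log2 ratio of KO 6 over KO 5 against the GC content of each gene's transcripts in percent. Grey hexagons, darker where there are more genes, on a log scale, show 11744 tested genes, and coloured points show the replication genes. The axes leave out 58 genes. Both the grey cloud and the coloured points run from upper left to lower right, the Orc genes lie at or above 0, and Cdt1, Tk1, Pold1 and Mcm10 lie lowest.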

How the data were processed

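The authors deposited 2 tables, one of KO 6 with WT 1 and one of KO 5 with WT 4, each listing Ensembl genes with whole-number counts, per the file headers. Next to these the authors deposited CPM for each library, a KO to WT ratio and its log2. The authors' deposited p-value and its adjusted form rest on 1 library per genotype, and their tool is not given in the sources used here. Per the submitters' processing notes, the tools were HTSeq 0.6.0, TopHat2 2.0.12 and Bowtie2 2.2.3 and the build mm9, without their roles or the strand setting. The deposited positions are nevertheless those of GRCm38: 91.6% of the 20344 genes found in GENCODE mouse release 21 have its start and end, as do 50 of the 52 replication genes.

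The members and gene lists were chosen with earlier results of these data known. Counts of the 20385 genes in both tables were fitted with edgeR 4.0.16 in R 4.3.3 (filterByExpr, TMM factors of 0.994 to 1.012, quasi-likelihood test, Benjamini-Hochberg adjustment over 16371 genes, two-sided, threshold 0.05). DESeq2 1.42.0, limma-voom (limma 3.58.1), other filters and normalizations, the deposited table as a block, and fits without each library were alternatives. The edgeR test was checked on simulated data. A prior count of 2 was added in log2 CPM for ratios between single libraries. Replicates were distinct libraries: chi-square divided by its degrees of freedom was 19.4 between the KO and 17.6 between the WT libraries. A floor of 3 counts is 0.171 to 0.184 CPM, which covers counting error only. Lengths are those of the principal protein-coding transcript of GENCODE release 21. GC content is that of all transcripts of a gene in the same release, and GC was matched in 20 bins. Python 3.11.15, pandas 2.3.3, scipy 1.17.1 and matplotlib 3.10.9 served for lists and figures.

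Values are given by library for the member of smallest p, of highest level per kilobase and of largest change in each of 10 role groups. Of each other list up to 3 genes of smallest p were eligible. Other genes given by library, such as Orc5, Cdt1, Gmnn, Mcm2, Pold1, Pole, Rrm1, Tk1 and Fen1, were chosen after their values were seen. For some genes no promoter sequence was used here. One marker list is not reported here.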

Additional observations from a re-analysis of the deposited data

How the results depend on the processing

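edgeR called 2 genes over the genome, DESeq2 8, the fit with the deposited table as a block 29, and fits without single libraries 5 to 312, while the count among the replication genes was 0 in each. The median log2 fold change of the replication genes, -0.08, was -0.17 to 0.0005 without single libraries, -0.21 within the table of KO 6 and WT 1 (-0.22 when matched for GC) and 0.055 within the table of KO 5 and WT 4. The other tests, normalizations and filters moved it by less than the spread between replicates. The share of promoters with an E2F motif was 20.9% in the 250 bases before the start alone. GC matching and the choice of length were added after seeing the data.

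Of the 19 replication genes given by library under the rule, 12 changed sign without at least 1 library. Their log2 fold changes ran from -0.12 to 0.15 for Orc6, -0.26 to 0.069 for Mcm7, -0.55 to 0.12 for Mcm10, -0.42 to 0.057 for Gins3, -0.14 to 0.019 for Gins4, -0.25 to 0.051 for Dbf4, -0.26 to 0.029 for Prim1, -0.13 to 0.038 for Pcna, -0.33 to 0.00049 for Lig1, -0.36 to 0.046 for Rpa3, -0.54 to 0.0066 for Rrm2 and -0.19 to 0.25 for Chaf1b. The smallest adjusted p of a named replication gene in any fit without a library was 0.832, for Ccne2.

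Replicate numbers gave no pairs: the labels number the KO libraries 5 and 6 and the WT libraries 1 and 4, so no number is shared. The deposited tables do set KO 6 with WT 1 and KO 5 with WT 4, without saying what the pairs share, and with the table as a block 0 of the replication genes were called. With 2 libraries per genotype, the 95% intervals of the replication genes spanned 0.475 to 1.48 log2 units.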
